A study of Mus musculus with 2 samples.

Results

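The 8 genes of fibroblast growth factor (FGF) signalling described here were followed across the cell classes of the mouse dorsal telencephalon at embryonic day 14.5: the receptor genes Fgfr1, Fgfr2 and Fgfr3, the ligand gene Fgf15, and the response and feedback genes Etv5, Dusp6, Spry1 and Spry2. They were chosen by symbol, each matched 1 row, and they are 8 of 32285 genes in the tables. The data were 2 droplet-based single-cell RNA sequencing libraries, named replicate 2 and replicate 4 after their titles, and both belonged to 1 group of WT embryos of the EomesDot line, so no genotypes or treatments could be compared. The study's methods name C57BL/6J embryos, and how these relate to the EomesDot line is not given in the sources used here. The study states an embryo number for its E14.5 single-cell data, deposited in several sets, and not how many embryos each of these 2 libraries held. The p-values therefore measure the spread between these 2 libraries, which may be technical. The libraries held 40267872 and 49422007 UMIs (molecular tags that each mark 1 captured transcript), and the 8 genes together 13520 and 16629 of them.

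FGFs bind receptor tyrosine kinases with the help of heparan sulfate, and the receptors pass the signal through the RAS and ERK kinase cascade to ETS transcription factors such as ETV5. The same cascade switches on its own inhibitors: Sprouty proteins act upstream of ERK, and DUSP6 removes phosphate from ERK. In the embryonic cortex the pathway is known for keeping radial glia in a progenitor state and for patterning the tissue from the rostral midline.

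After filtering, 3153 cells remained (1197 and 1956), with median depths of 30810 and 22948.5 UMIs per cell. Of 24 clusters, 20 received a name from marker lists and 4 (431 cells, 13.7%) did not. The radial glial cell (RGC)-like class held 206 and 350 cells in 3 clusters, and all 12 RGC markers were raised in each of these clusters. The intermediate progenitor cell (IPC)-like class held 189 and 312 cells, the excitatory neuron-like class 459 and 710, and the medial ganglionic eminence (MGE) interneuron-like class 54 and 83. Both libraries shared 3 barcodes, 1 of them among the cells retained. Barcodes in which hemoglobin made up more than 50% of the UMIs (58 and 67) held 0 UMIs of the 8 genes among 949116, which allows a background of up to 3.16 CPM (the UMIs of a gene per 1000000 UMIs), counting error only. All levels below are CPM of the summed UMIs of a class in 1 library. Genes are not compared by level with each other, since the kit captures transcripts at their 3′ ends and the yield differs by gene.

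Among the receptor genes, Fgfr3 differed sharply between classes. Its level was 78.1 CPM in replicate 2 and 71.5 in replicate 4 in RGC-like cells, 14.1 and 23.8 in IPC-like cells, 3.57 and 4.98 in excitatory neuron-like cells and 0.803 and 0 in MGE interneuron-like cells. These 4 classes did not overlap between libraries, and the order from RGC through IPC to neuron held in each. A UMI of Fgfr3 was found in 68.0% and 64.6% of RGC-like cells, against 11.3% and 9.0% of excitatory neuron-like and 1 of 54 and 0 of 83 MGE interneuron-like cells, in which 3 counts over both libraries would correspond to 1.27 CPM. With each cell thinned to 5000 UMIs, the shares in RGC-like cells were 28.3% and 26.0%, against 1.1% and 1.9% in excitatory neuron-like cells.

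Fgfr1 was also highest in RGC-like cells, at 143 and 138 CPM, but its order was a different one. Excitatory neuron-like cells held 80.9 and 65.1 CPM, which lay above IPC-like cells (32.8 and 45.2), and MGE interneuron-like cells were the lowest of the 7 classes in the fit (16.1 and 17.1). Meningeal fibroblast-like cells (104 and 69.0 CPM) overlapped with excitatory neuron-like cells, and IPC-like cells with caudal ganglionic eminence (CGE) interneuron-like cells (35.7 and 37.3). Of the 148 cells named CGE interneuron-like, 46 formed a sub-cluster of dividing cells, with Top2a and Mki67 among its leading genes. This sub-cluster held 10 of 31 and 42 of 68 of the Fgfr1 UMIs of the class, so these levels are not those of interneurons alone. Fgfr2 was present in every class. It stood at 371 and 383 CPM in RGC-like cells, at 164 and 174 in IPC-like cells, at 154 and 145 in excitatory neuron-like cells and at 271 and 229 in MGE interneuron-like cells. The meningeal, MGE, CGE and IPC-like classes overlapped with their neighbours in this order, so the RGC-like class stood apart at the top of the 7. Hem or choroid plexus-like cells, 18 and 9 in number and outside the fit, held 496 and 575 CPM of Fgfr2.

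**Figure D1:**
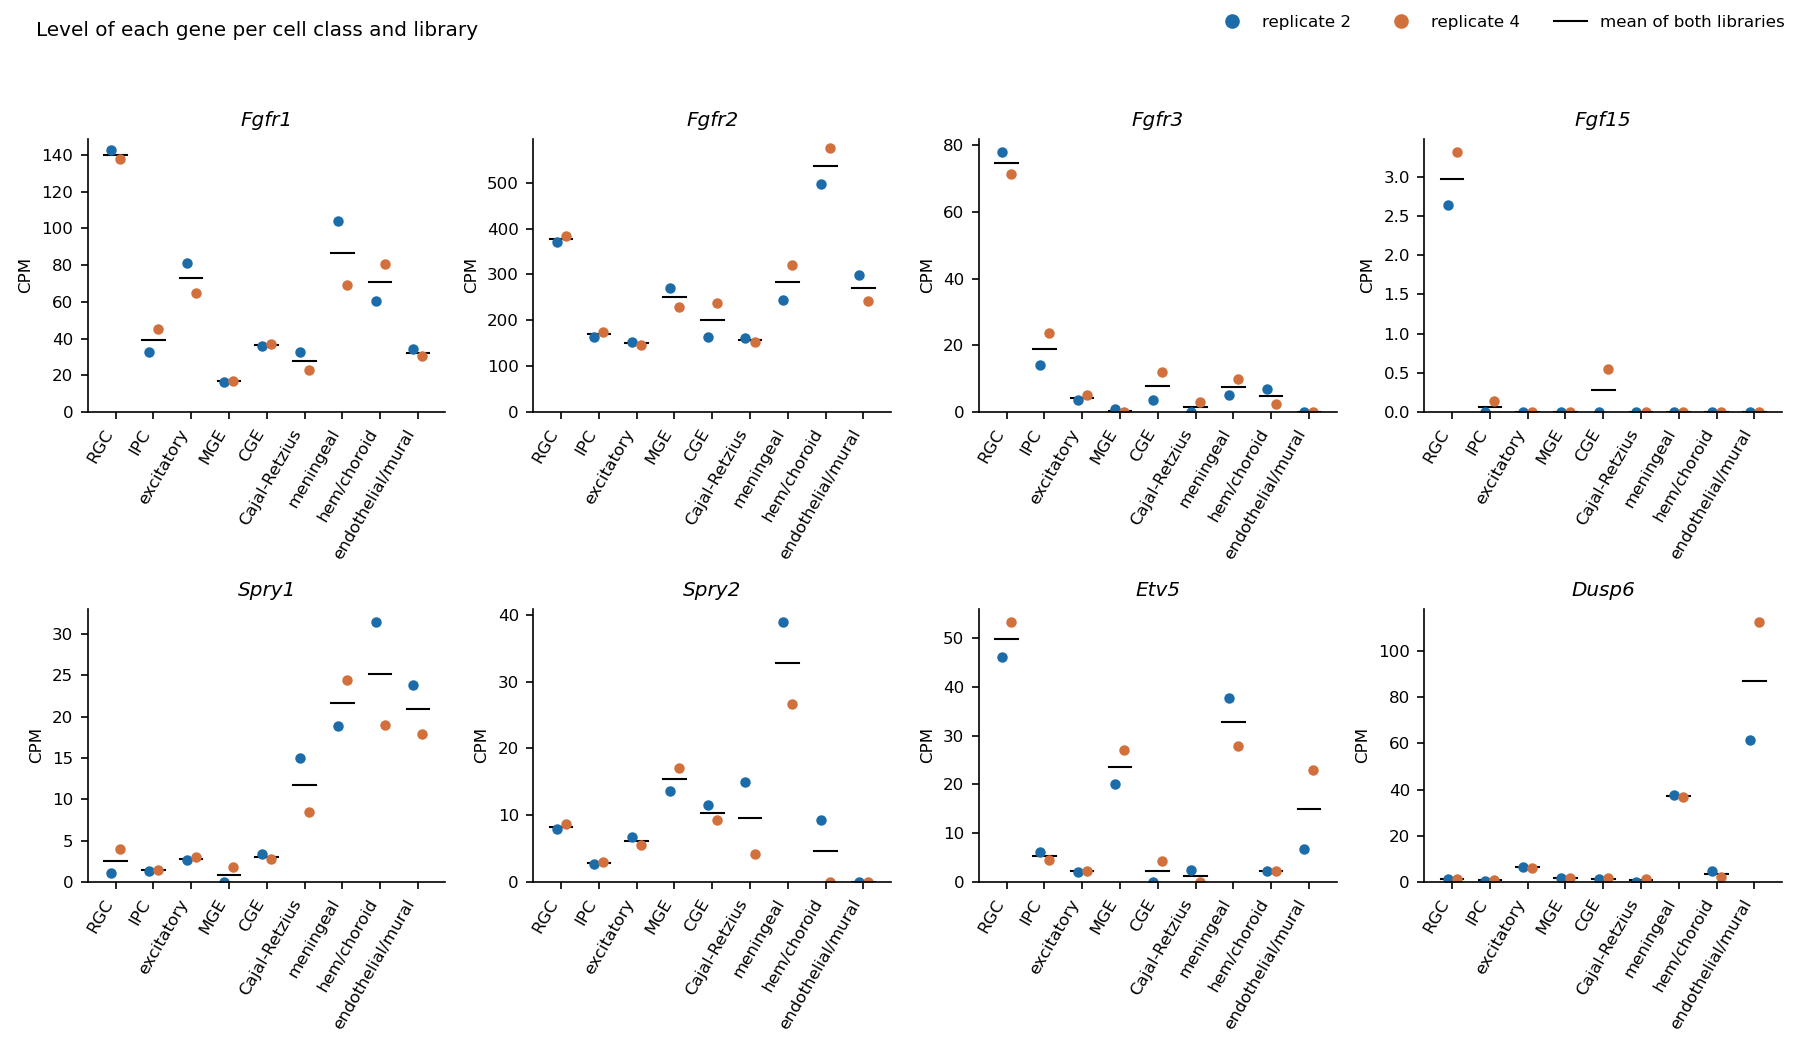
Level in CPM (linear axis, 1 scale per gene) of the 8 genes in 9 cell classes. Points are libraries and bars the mean of both. Of the 9 classes, RGC-like cells are highest for Fgfr3 and for Fgf15, the latter rare at 2.64 and 3.32 CPM. Dusp6 is highest in endothelial or mural-like cells (61.3 and 113 CPM). Spry1 reaches 17.9 to 31.5 CPM in the meningeal, hem or choroid plexus and endothelial or mural-like classes, which overlap.

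The ligand Fgf15, known as a product of progenitors in the embryonic forebrain, was rare. Only 61 of its UMIs were found, in 27 of 3153 cells, and the 5 cells with most UMIs held 24 of them (39.3%). RGC-like cells carried 51 of the UMIs (19 cells; 2.64 and 3.32 CPM), while IPC-like and CGE interneuron-like cells carried 1 each and excitatory neuron-like, MGE interneuron-like, Cajal-Retzius-like and meningeal fibroblast-like cells none. Against excitatory neuron-like cells, where 0 UMIs allow up to 0.084 CPM over both libraries (3 counts), the RGC-like level was at least 36.1-fold higher. The RGC-like level is near the limit set by the hemoglobin barcodes, so the share of free RNA in single cells was not tested for this gene. Fgf15 did not pass the filter on low counts in the fit across classes.

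The response genes parted company. Etv5, an ETS factor induced by FGF signalling, fell in the same order as Fgfr3 along the cortical lineage: 46.1 and 53.3 CPM in RGC-like cells, 6.19 and 4.54 in IPC-like cells and 2.14 and 2.28 in excitatory neuron-like cells. It was also present in meningeal fibroblast-like cells (37.7 and 27.8 CPM) and in MGE interneuron-like cells (20.1 and 27.0), although the latter were near 0 for Fgfr3 and lowest for Fgfr1. CGE interneuron-like cells held 0 and 4.39 CPM of Etv5, with 5 of the 8 UMIs of replicate 4 in the dividing sub-cluster. Dusp6 went another way. It was at 1.25 and 1.45 CPM in RGC-like cells and at 0.516 and 1.07 in IPC-like cells, below the limit set by the hemoglobin barcodes, at 6.66 and 6.20 in excitatory neuron-like cells and at 37.7 and 36.7 in meningeal fibroblast-like cells. Its highest level, 61.3 and 113 CPM, was in the 9 and 18 endothelial or mural-like cells. Erythroid marker genes together stood at 91.9 CPM in replicate 2 and 45558 in replicate 4 of that class.

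The Sprouty genes were low in the cortical lineage. Spry2 stood at 7.91 and 8.73 CPM in RGC-like cells, 2.75 and 3.07 in IPC-like cells, 6.71 and 5.56 in excitatory neuron-like cells, 13.6 and 17.1 in MGE interneuron-like cells and 39.0 and 26.7 in meningeal fibroblast-like cells. Spry1 was at 1.11 and 4.05 CPM in RGC-like cells, a spread that covered the IPC-like (1.38 and 1.47) and excitatory neuron-like (2.61 and 3.07) classes, and all 3 lie about or below the limit set by the hemoglobin barcodes. It was higher in meningeal fibroblast-like (18.9 and 24.5), Cajal-Retzius-like (14.95 and 8.50), hem or choroid plexus-like (31.5 and 18.9) and endothelial or mural-like cells (23.8 and 17.9).

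Promoter windows of these genes, from 250 bases before to 50 after a transcription start, were read from RefSeq (GRCm38.p6, the build also named mm10 in the submitters' processing notes). Windows were matched for 6 of the 8 genes (8 windows), with none for Fgfr1 and Fgf15. Shown are the Etv5 window with matches to the ETS core GGAAGT, 1 Fgfr3 window and the Dusp6 window. Fgfr3 is the receptor gene that shared the order of Etv5 from RGC-like through IPC-like to excitatory neuron-like cells. Dusp6 is the gene that, as class sums, was higher in excitatory neuron-like than in RGC-like cells. Capitals mark GGAAGT or its reverse complement.
Etv5, chr16:22438319-22438618, minus strand: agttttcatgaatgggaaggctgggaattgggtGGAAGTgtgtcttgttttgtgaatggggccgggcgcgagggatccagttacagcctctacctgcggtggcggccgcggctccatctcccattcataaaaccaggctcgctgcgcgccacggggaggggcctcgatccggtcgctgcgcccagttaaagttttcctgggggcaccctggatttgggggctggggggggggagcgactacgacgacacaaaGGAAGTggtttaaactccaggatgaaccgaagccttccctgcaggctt
Fgfr3, chr5:33721474-33721773, plus strand: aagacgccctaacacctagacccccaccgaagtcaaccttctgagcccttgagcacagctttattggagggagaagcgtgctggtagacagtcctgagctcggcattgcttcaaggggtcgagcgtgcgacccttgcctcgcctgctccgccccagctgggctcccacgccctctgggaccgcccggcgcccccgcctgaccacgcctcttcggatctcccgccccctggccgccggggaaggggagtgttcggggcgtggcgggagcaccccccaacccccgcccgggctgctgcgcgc
Dusp6, chr10:99262981-99263280, plus strand: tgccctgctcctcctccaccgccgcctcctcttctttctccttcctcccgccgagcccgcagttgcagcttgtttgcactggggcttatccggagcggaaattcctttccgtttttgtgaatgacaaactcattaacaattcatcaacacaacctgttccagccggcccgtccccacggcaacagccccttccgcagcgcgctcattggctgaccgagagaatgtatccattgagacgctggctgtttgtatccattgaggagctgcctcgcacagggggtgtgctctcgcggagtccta
The ETS core was found, on either strand, in 1 of the 8 windows and in 23.8% of all 32851 windows. The octamers TGAATGAA and TGAATGGA, which the ERK-regulated repressor Capicua is known to bind, were in none of the 8 and in 1.30% and 1.21% of all. The CRE letters TGACGTCA (1.79% of all) were in none, the E-box CAGCTG (16.3%) in windows of Fgfr3 and Etv5, and TGGGAA (25.6%), the RBPJ core, in windows of Fgfr2 and Etv5. The Fgfr2 window stood apart by its 4 CpG dinucleotides, against 19 to 37 in the other 7 windows and a median of 7 over all windows.

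The first comparison asked how the genes differ between the stem cell-like progenitors and their intermediate progeny. Between RGC-like and IPC-like cells, 5 of the 7 genes tested were higher in RGC-like cells and none was lower. Over all 12928 genes 34.4% were called, 17.3% as higher and 17.1% as lower. The classes also differed in cell cycle phase. S-like or G2/M-like cells made up 82.5% and 89.4% of RGC-like and 23.3% and 27.9% of IPC-like cells. They made up 0.436% and 0.845% of excitatory neuron-like and 0% of MGE interneuron-like cells. The part of the cell cycle in the differences between classes was not tested. The fitted log2 difference was 3.13 ± 0.32 (SE) for Etv5 (adjusted p = 3.16e-05), 1.88 ± 0.31 for Fgfr3 (adjusted p = 0.000799), 1.75 ± 0.20 for Fgfr1 (adjusted p = 7.54e-05), 1.41 ± 0.31 for Spry2 (adjusted p = 0.00488) and 1.07 ± 0.18 for Fgfr2 (adjusted p = 0.00103). Dusp6 (0.63 ± 0.45, adjusted p = 0.351) and Spry1 (0.80 ± 0.61, adjusted p = 0.344) did not pass the test, although Spry1 was called in 1 of 12 alternatives and Dusp6 in 2 of 11, at 1.75 with doublets kept (adjusted p = 0.00628) and 2.57 with genes scaled within libraries (adjusted p = 0.00189). The Spry2 call was lost when classes were assigned with a portion of each cell's UMIs and the remainder was tested (adjusted p = 0.271). Here and below the adjusted p-values come from edgeR's quasi-likelihood test over 2 libraries per class.

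The second comparison set progenitors against their neuronal progeny. Between RGC-like and excitatory neuron-like cells, 4 genes were higher and 1 lower, where 54.2% of all genes were called (25.4% higher, 28.8% lower). Etv5 was higher by 4.24 ± 0.32 on the log2 scale (adjusted p = 8.64e-07), Fgfr3 by 3.88 ± 0.34 (adjusted p = 2.32e-06), Fgfr2 by 1.10 ± 0.18 (adjusted p = 0.000341) and Fgfr1 by 0.71 ± 0.19 (adjusted p = 0.00839). Dusp6 was lower, at -2.45 ± 0.34 (adjusted p = 8.32e-05), and stayed called in 12 of 12 alternatives, between -2.60 and -1.14. This is a difference of class sums, and not all excitatory neuron-like clusters shared it. Dusp6 was between 10.7 and 20.7 CPM in those led by Lrfn5 or Rgs6. It was at 0 and 0.529 in that led by Unc5d and Adamtsl3 and 0 and 1.69 in that led by Tafa1. That led by Cntn2 held 1.94 and 2.68, against 1.25 and 1.45 in RGC-like cells. The comparisons of Dusp6 with excitatory neuron-like cells below use the same class sum. The Etv5 difference ranged from 3.43 to 4.89 over its alternatives. Spry2 (0.21 ± 0.27, adjusted p = 0.53) and Spry1 (-0.33 ± 0.52, adjusted p = 0.622) were not called. Spry1 turned to the opposite sign in 3 of 12 alternatives, once with a call (1.20, adjusted p = 0.0178).

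Between IPC-like and excitatory neuron-like cells, 2 genes were higher and 3 lower, where 34.5% of all genes were called (16.5% higher, 18.0% lower). Fgfr3 was still higher in IPC-like cells, by 2.005 ± 0.34 (adjusted p = 0.000744), and Etv5 by 1.11 ± 0.36 (adjusted p = 0.0327). Fgfr1 was lower in IPC-like cells, at -1.04 ± 0.20 (adjusted p = 0.00169), so that as class sums both RGC-like cells and neurons exceeded the class between them. Spry2, at -1.20 ± 0.31 (adjusted p = 0.0104), had the same shape, on 39 UMIs in IPC-like cells, whereas Dusp6, at -3.08 ± 0.38 (adjusted p = 9.05e-05), was low in both progenitor classes. Without replicate 4, which left 1 library per class and no test, the Dusp6 difference was -3.78. Of the 4 IPC-like clusters, that led by Unc5d, Eomes and Mfap4 held Fgfr1 at 67.8 and 77.1 CPM, near the excitatory neuron-like level. This cluster had 6 excitatory neuron markers raised, and 1.09% of its cells were G2/M-like. The other IPC-like clusters held Fgfr1 between 21.5 and 49.7 CPM. Spry2 was at 4.84 and 6.02 CPM in that cluster and between 1.06 and 2.76 in the others. The lower levels were thus not shared by all IPC-like clusters. Fgfr2, at 0.04 ± 0.18 (adjusted p = 0.908), and Spry1, at -1.13 ± 0.58 (adjusted p = 0.161), were not called, although Spry1 was in 2 of 12 alternatives. Spry2 in IPC-like cells and Etv5 in excitatory neuron-like cells (2.14 and 2.28 CPM) also lay below the limit set by the hemoglobin barcodes. Over the alternatives the Fgfr3 difference ranged from 1.24 to 2.51 and that of Dusp6 from -3.71 to -2.39. The Etv5 difference ranged from 0.21 to 2.09, and its call was lost with doublets kept (adjusted p = 0.579) and at either other clustering resolution (adjusted p = 0.0818 and 0.0848), and the Spry2 call in 4 of 13 alternatives (highest adjusted p = 0.299).

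**Figure D2:**
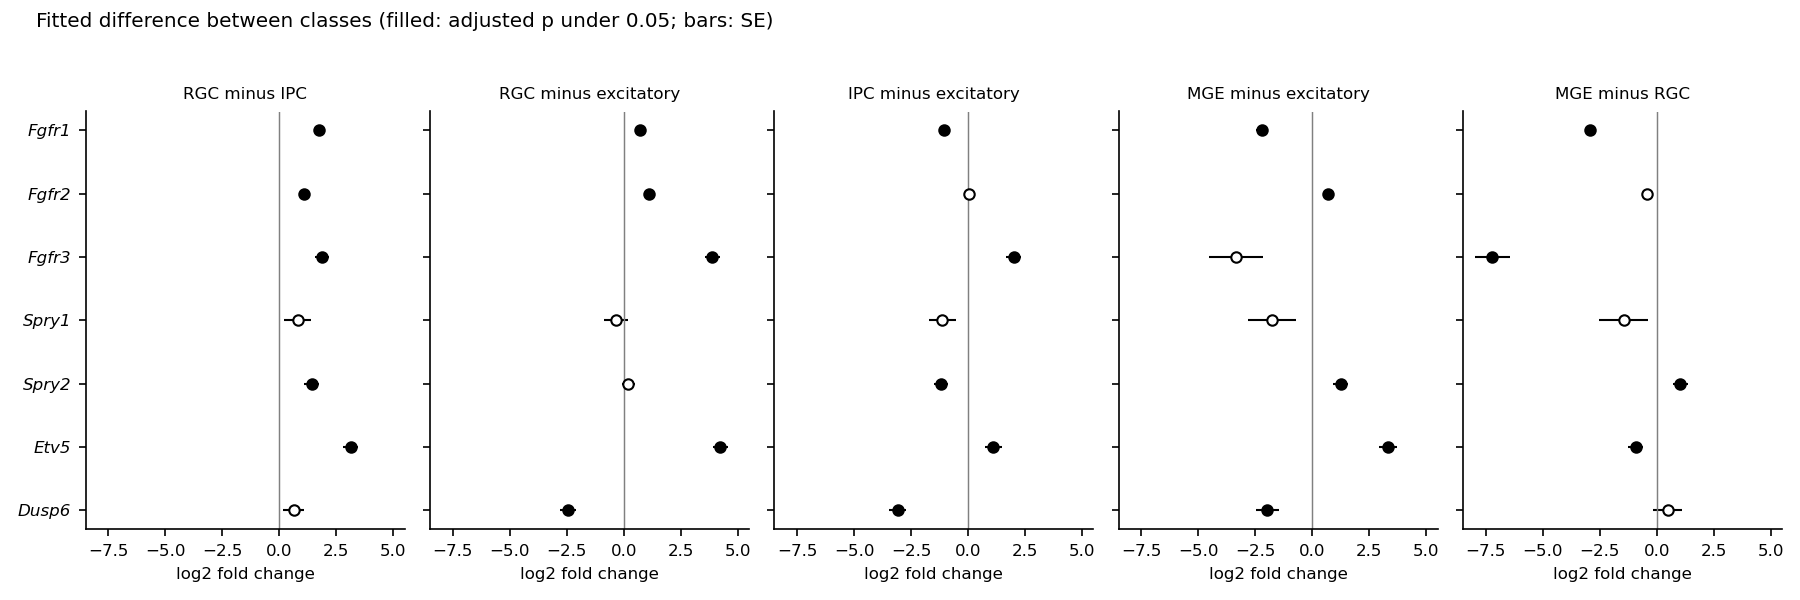
Fitted log2 fold change with SE for the 7 genes tested, in 5 comparisons of cell classes over 2 libraries. Filled points have an adjusted p under 0.05. Etv5 and Fgfr3 lie right of 0 in all 3 comparisons of the cortical lineage, Dusp6 lies left of 0 against excitatory neuron-like cells, and Fgfr3 reaches -7.22 for MGE interneuron-like minus RGC-like cells, where the MGE class held 1 UMI.

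Interneurons that enter the cortex from the MGE were compared with both classes. Against excitatory neuron-like cells, MGE interneuron-like cells were higher for 3 genes and lower for 2, where 20.1% of all genes were called (7.99% higher, 12.1% lower). Etv5 was higher by 3.33 ± 0.39 (adjusted p = 0.000141), Spry2 by 1.25 ± 0.33 (adjusted p = 0.0195) and Fgfr2 by 0.68 ± 0.19 (adjusted p = 0.0241). Fgfr1 was lower, at -2.20 ± 0.25 (adjusted p = 0.00012), and Dusp6 lower, at -1.97 ± 0.52 (adjusted p = 0.0194), on 4 UMIs in the MGE class. Fgfr3, with 1 UMI in the MGE class (-3.33 ± 1.18, adjusted p = 0.0708), was called in 3 of 13 alternatives only, and Spry1, with 2 UMIs (-1.78 ± 1.05, adjusted p = 0.275), in none. The Spry2, Dusp6 and Fgfr2 calls were each lost in at least 1 of the alternatives tried (highest adjusted p = 0.366, 0.291 and 0.132), with Dusp6 between -2.04 and -1.28. The Etv5 difference ranged from 2.74 to 4.24. MGE interneuron-like cells had median depths of 23450.5 and 10594 UMIs, against 35540 and 25489 in excitatory neuron-like cells. Their sub-clusters had 3.30% to 4.01% ribosomal UMIs, against 4.82% to 7.81% in the excitatory neuron-like clusters. The part of RNA content in these differences was not tested.

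Against RGC-like cells, 1 gene was higher in MGE interneuron-like cells and 3 were lower, where 52.2% of all genes were called (26.0% higher, 26.1% lower). Fgfr1 was lower, at -2.91 ± 0.25 (adjusted p = 3.82e-06), and Etv5, at -0.92 ± 0.33 (adjusted p = 0.0352). Spry2 was higher by 1.04 ± 0.33 (adjusted p = 0.0205). For Fgfr3 (adjusted p = 1.46e-05) the MGE class held 1 UMI against 1251 in the RGC-like class, a ratio of 0.00571 with an exact 95% counting interval of 0.000144 to 0.0319. Fgfr2, at -0.42 ± 0.19 (adjusted p = 0.0762), was not called here but was in 6 of 13 alternatives, while the Etv5 call was lost in 4 (nearest to 0 at -0.28) and the Spry2 call in 3. Dusp6 (0.48 ± 0.64, adjusted p = 0.636) and Spry1 (-1.45 ± 1.09, adjusted p = 0.286) were not called, although Spry1 was in 2 of 11 alternatives (-2.31 and -2.81). The comparison of hem or choroid plexus-like with RGC-like cells could not be fitted, since 1 library held 9 such cells and the minimum was 10.

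The other genes of the pathway numbered 79, and 60 of them were tested across classes. Between RGC-like and IPC-like cells 19 were higher and 7 lower, with a median log2 difference of 0.36, against -0.0046 over all genes, of which 17.3% were higher and 17.1% lower. Of the 17 genes for heparan sulfate and its carriers, 10 were higher and 3 lower, and of the 16 genes tested for the relay from receptor to ERK, 1 was higher and 2 were lower. Of the 9 target genes tested, Etv5 included, 2 were higher and 0 lower. The glypican gene Gpc3 (57.7 and 48.7 CPM in RGC-like, 4.98 and 6.55 in IPC-like cells) and the syndecan gene Sdc4 (8.46 and 7.90 against 1.38 and 1.20) were higher in RGC-like cells, as was the ETS factor gene Etv4 (8.05 and 6.34 against 0.688 and 1.60). Among feedback genes, Spry4 had 21 UMIs in RGC-like cells and 0 in IPC-like cells, at least 5.53-fold higher against the limit of 3 counts over both libraries. Spry4, Fgf2 and Sulf1 also had 0 UMIs in the hemoglobin barcodes, and their levels in RGC-like and IPC-like cells lay below the 3.16 CPM that this allows. Spry4 was at 1.11 and 1.35 CPM in RGC-like cells, and its call held in 8 of 11 alternatives, with the sign turned in 1 of the others (-1.20). The ligand gene Fgf2 was at 2.22 and 2.49 CPM against 0 and 0.401, and lost its call in 1 of 13 alternatives. In the opposite direction stood Dusp4, an ERK phosphatase gene of the same family as Dusp6 (1.66 and 3.53 against 53.1 and 46.4 CPM), Sdc3 (3.33 and 3.01 against 45.9 and 36.5), Gpc2 (11.2 and 11.5 against 82.3 and 77.6), Fgf11, an FGF homologue that stays inside the cell (0.832 and 0.727 against 4.98 and 6.68), and the sulfatase gene Sulf1 (0.555 and 0.208 against 1.72 and 1.34). Of 12 alternatives, the Sulf1 call was lost in 4 (highest adjusted p = 0.446) and turned to the opposite sign, with a call, in 1.

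Between RGC-like and excitatory neuron-like cells 22 of the 60 were higher and 17 lower (median -0.012, against -0.056 over all genes, of which 25.4% were higher and 28.8% lower). Of the 17 genes for heparan sulfate and its carriers, 8 were higher and 6 lower (median 0.0315). In this comparison 7 of 9 tested target genes, Etv5 among them, were higher and 1 lower: cyclin D1 (Ccnd1) stood at 60.8 and 71.8 CPM against 3.03 and 3.60, and Etv1 at 64.4 and 54.9 against 0.713 and 5.56. Sdc4, Gpc3 and Sdc2 were the other genes higher with the largest differences, and Dusp4, Gpc2, Fgf11, Sdc3 and Sulf1 the genes lower. Sulf1 turned from -3.39 to 4.25, with a call, in 1 alternative. Between IPC-like and excitatory neuron-like cells 10 were higher and 15 lower, where 16.5% of all genes were higher and 18.0% lower. The secreted ligand gene Fgf18 was at 0.516 and 0.401 CPM in IPC-like cells against 7.55 and 7.68, Fgf14 at 47.1 and 69.2 against 730.4 and 814, Fgf12 at 12.03 and 10.2 against 114 and 154, Hs6st2, a heparan sulfate sulfotransferase gene, at 32.8 and 44.9 against 519.5 and 443, and Myc at 2.06 and 1.74 against 5.59 and 7.20. Ccnd1, Sdc4, Etv1, Gpc3 and Fgfrl1 (10.3 and 9.62 against 1.13 and 1.69), a receptor gene without a kinase domain, were higher. Sdc4, at 1.38 and 1.20 CPM in IPC-like cells and 4 UMIs in excitatory neuron-like cells, lay below the limit set by the hemoglobin barcodes in both. The Etv1 call was lost in 7 of 13 alternatives (highest adjusted p = 0.465), the library as a block among them (adjusted p = 0.0501), and its log2 difference was 0.88 without replicate 2 and 5.66 without replicate 4. The Gpc3 call was lost in 3 of 13 (highest adjusted p = 0.872).

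In MGE interneuron-like cells, 7 of the 60 were higher and 7 lower than in excitatory neuron-like cells, and 18 higher and 18 lower than in RGC-like cells. Over all genes, 7.99% were higher and 12.1% lower in the first comparison and 26.0% and 26.1% in the second. All 4 intracellular FGF genes were higher than in RGC-like cells, and 2 of the 4 also than in excitatory neuron-like cells: Fgf12 stood at 584 and 610.3 CPM and Fgf13 at 1330.5 and 1393, against 361 and 421 for Fgf13 in excitatory neuron-like cells. Fgf14 (0.47, adjusted p = 0.553) and Fgf11 (-0.58, adjusted p = 0.332) were not called against excitatory neuron-like cells. Fgf1 (1.61 and 11.7 CPM against 0.119 and 0.794), Fos (17.7 and 33.3 against 1.78 and 2.07) and Sulf2 (19.3 and 24.3 against 4.04 and 3.34) were higher than in excitatory neuron-like cells. Hs6st2 (0 and 3.60 against 519.5 and 443), Gpc4 (1.61 and 1.80 against 96.6 and 110.2), Ier2, Gab1 and Mapk3 were lower. The Fgf1, Sulf2 and Mapk3 calls were each lost in 1 alternative. Fgfrl1 had 0 UMIs in the MGE class and 243 in the RGC-like class, at least 11.3-fold lower, and Sdc4 0 against 137, at least 6.39-fold lower. Gpc4, Gpc3 and Hs6st2 were also lower than in RGC-like cells, and Dusp4, Gpc2, Fgf14 and Sdc3 higher.

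Within the RGC-like class, cells were set apart by cell cycle phase. No gene of the 5 tested was called between S-like and G2/M-like cells, where 4.02% of all genes were called (467, with 1995 at an unadjusted p under 0.05, 397 called by DESeq2 and 1061 when all genes with at least 1 count were tested). Fgfr3 was at 65.4 and 55.7 CPM in S-like cells and at 100.4 and 85.4 in G2/M-like cells, without overlap, with 42.7 and 42.5 in the 36 and 37 G1-like cells. The fitted difference was -0.59 ± 0.19 (adjusted p = 0.144), and it was called only when all genes with at least 1 count were tested (adjusted p = 0.0244). Fgfr1 (151 and 137 CPM against 147 and 141), Fgfr2 and Etv5 overlapped between these phases. Spry2 was at 10.1 and 9.19 CPM against 7.77 and 8.46 (0.27 ± 0.41, adjusted p = 0.802), and Dusp6, Fgf15 and Spry1 did not pass the filter on low counts. Among the other pathway genes, Etv4 was higher in S-like cells (12.4 and 12.1 CPM against 3.73 and 3.13, adjusted p = 0.0392), as was Hs6st2 (adjusted p = 0.0349). None of the 5 differed in its phase difference between RGC-like and IPC-like cells, where 0.258% of all genes were called (30, with 1397 at an unadjusted p under 0.05 and 146 by DESeq2).

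RGC-like cells with at least 1 UMI of Neurog2, the proneural factor of cells about to leave the radial glial state, were then compared with those with none (112 and 164 against 94 and 186 cells). Etv5 was the only one of 7 genes called, where 0.541% of all genes were called (67, and 677 under a library block). Its level was 35.1 and 36.1 CPM in Neurog2-positive and 58.8 and 70.8 in Neurog2-negative cells, a log2 difference of -0.88 ± 0.13 (adjusted p = 0.0495). With each cell thinned to 5000 UMIs after the split the difference was -1.54 and called (adjusted p = 0.0121). With cells thinned before the split it was -1.04 and no longer called (adjusted p = 0.214). Fgfr1 was at 127 and 125 CPM against 161 and 151 (-0.32 ± 0.09, adjusted p = 0.202), and it was called once the library entered as a block, since both cell groups come from the same libraries (adjusted p = 0.0477). Fgf15 stood at 3.61 and 6.18 CPM in Neurog2-positive cells (14 and 30 UMIs) and at 1.499 and 0.419 in Neurog2-negative cells (5 and 2 UMIs), a difference of 2.44 ± 0.65 (adjusted p = 0.196) that was called only when all genes with at least 1 count were tested (adjusted p = 0.00284). By phase, Fgf15 was at 10.7 and 9.92 CPM in G1-like cells (10 and 7 UMIs), 0.327 and 1.15 in S-like and 2.49 and 3.86 in G2/M-like cells. Fgfr3 was not called (82.1 and 75.4 against 73.4 and 67.5 CPM, adjusted p = 0.646). Fgfr2 (-0.17 ± 0.09, adjusted p = 0.495), Spry2 (-0.17 ± 0.26, adjusted p = 0.86) and Spry1 (-0.04 ± 0.76, adjusted p = 0.992) were not called, and Dusp6 did not pass the filter. Eomes, the IPC marker, was at 31.8 and 36.7 CPM in Neurog2-positive cells and at 4.50 and 1.26 in Neurog2-negative cells.

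**Figure D3:**
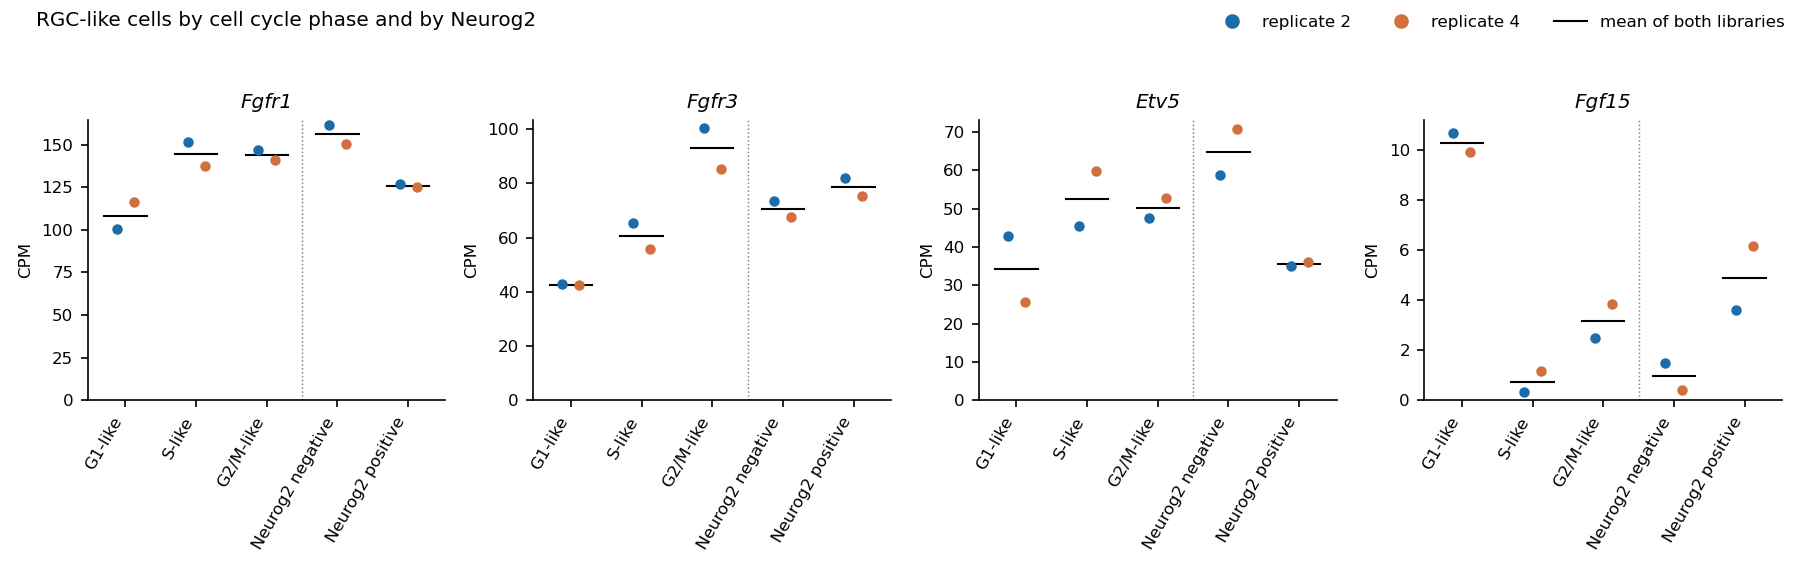
Level in CPM (linear axis) of Fgfr1, Fgfr3, Etv5 and Fgf15 in RGC-like cells by cell cycle phase and by the presence of a Neurog2 UMI. Points are libraries and bars the mean of both. Both libraries place Etv5 lower in Neurog2-positive cells (35.1 and 36.1 against 58.8 and 70.8) and Fgfr3 higher in G2/M-like than in S-like cells.

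Clusters singled out after their values were seen add to the picture, as a description without a test. A cluster of 139 cells led by Ttr, Trpm3 and Rspo3 had all 12 RGC markers raised but stayed without a name. It held Fgfr3 at 81.0 and 86.3 CPM and Fgfr1 at 126 and 128, levels like those of the RGC-like class, yet Etv5 at 13.3 and 18.3 and Spry1 at 33.5 and 24.9 CPM, against 1.11 and 4.05 in the RGC-like class. Ttr and Trpm3 are known from choroid plexus and Rspo3 from the cortical hem. Another unnamed cluster with RGC markers, of 65 cells with a median of 5368 UMIs and 2.26% ribosomal UMIs, held Fgfr2 at 1114 and 1082 CPM, on 278 and 193 UMIs, Fgfr1 at 240.5 and 252 and Fgfr3 at 152 and 135. The 3 RGC-like clusters had 10.1% to 12.7% ribosomal UMIs, with Fgfr2 between 334 and 421 CPM, Fgfr1 between 126 and 155 and Fgfr3 between 48.5 and 100.1, so all 3 receptor genes were higher in the cluster of low depth. The part of depth and RNA content in this result was not tested.

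**Figure D4:**
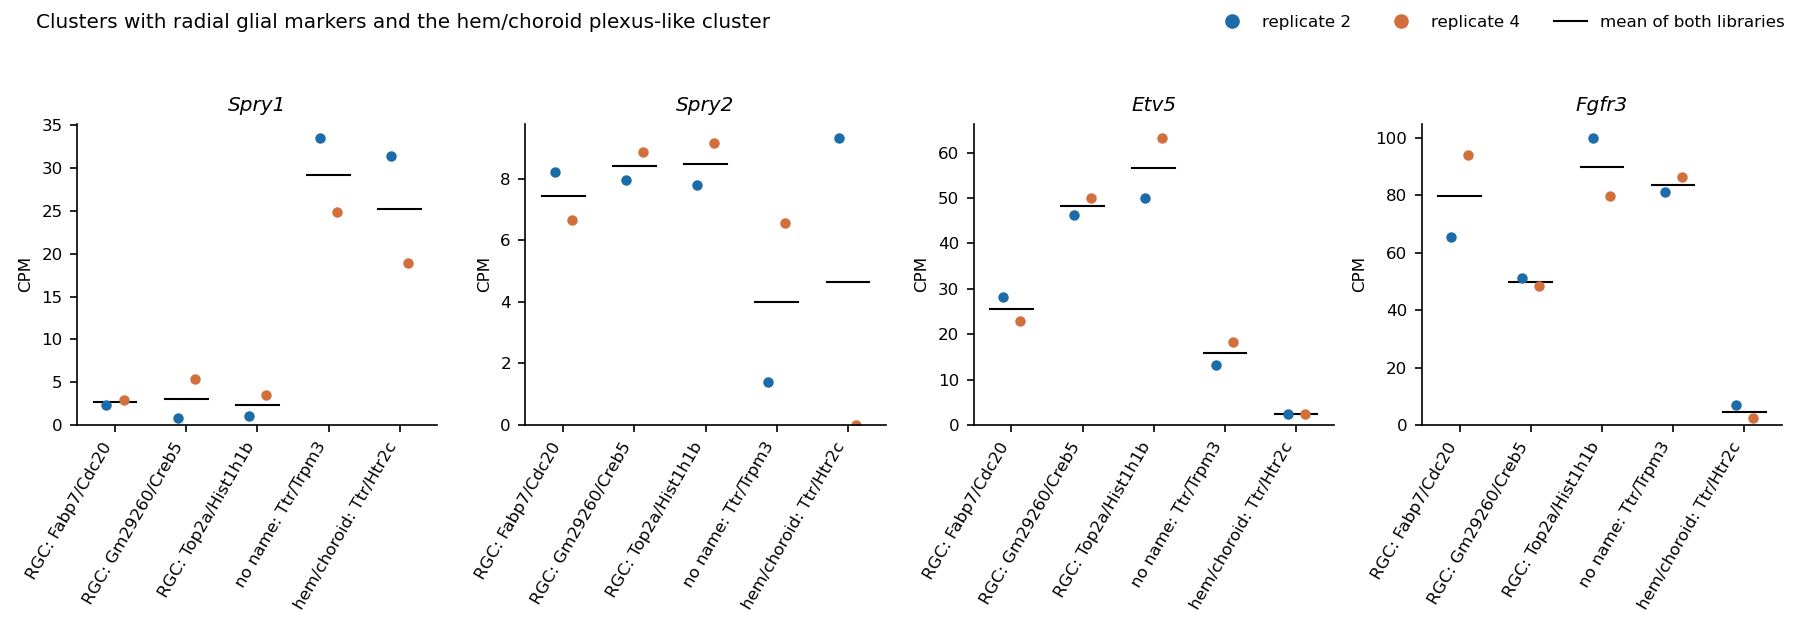
Level in CPM (linear axis) of Spry1, Spry2, Etv5 and Fgfr3 in the 3 RGC-like clusters, the unnamed cluster with all 12 RGC markers raised and the hem or choroid plexus-like cluster. Each is named by its first leading genes. The unnamed cluster of 65 cells with RGC markers is not shown. Points are libraries and bars the mean of both. The unnamed cluster shown combines Fgfr3 at 81.0 and 86.3 CPM with Spry1 at 33.5 and 24.9 CPM.

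The 6 excitatory neuron-like clusters differed in Fgfr1 and Dusp6. In the cluster led by Rgs6 and Hs3st4, of 116 cells, Fgfr1 was at 16.0 and 15.3 CPM and Dusp6 at 20.7 and 16.6, with Spry2 at 16.0 and 17.0 and Etv5 at 10.7 and 6.80. In the cluster led by Cntn2 and Kcnq3, of 302 cells, Fgfr1 was at 110.5 and 112.5 CPM and Dusp6 at 1.94 and 2.68. The cluster led by Unc5d and Adamtsl3, whose leading genes include Neurod1, held Dusp6 at 0 and 0.529 CPM, with Fgfr1 at 55.8 and 47.8. That led by Tafa1 and Tafa2, of 13 and 78 cells, held Dusp6 at 0 and 1.69 CPM, with Fgfr1 at 43.2 and 27.0. A pair of clusters led by Lrfn5 held both genes: Dusp6 at 10.7 and 13.2 with Fgfr1 at 113 and 87.9, and Dusp6 at 14.0 and 11.1 with Fgfr1 at 83.8 and 76.9.

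**Figure D5:**
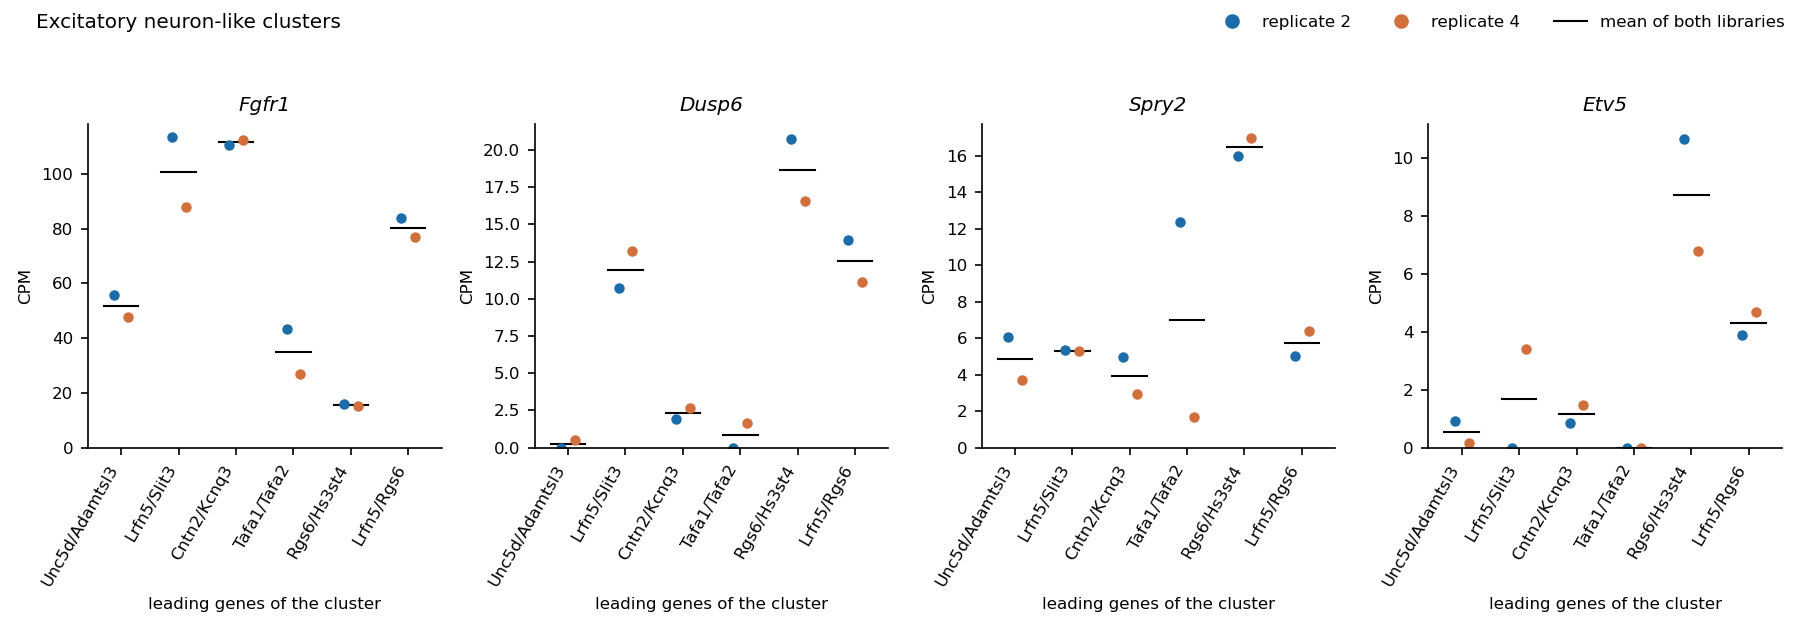
Level in CPM (linear axis) of Fgfr1, Dusp6, Spry2 and Etv5 in the 6 excitatory neuron-like clusters, each named by its first leading genes. Points are libraries and bars the mean of both. The Rgs6/Hs3st4 cluster is lowest for Fgfr1 (16.0 and 15.3 CPM) and highest for Dusp6 (20.7 and 16.6).

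For each gene tested, the 3 genes most alike across the 14 class sums (7 classes, 2 libraries) were found by Pearson's r of log2(CPM + 10). These points share libraries and depth, and r is given as a description. Fgfr3 was followed most closely by Veph1 (0.978), Prdm16 (0.977) and Sox3 (0.970), Fgfr1 by Fras1 (0.946), Klhl25 (0.913) and Cnn3 (0.899), and Fgfr2 by Nacc2 (0.908), Eps15 (0.906) and Slc16a6 (0.903). Etv5 was followed by Eps15 (0.939), 1110032F04Rik (0.927) and Vegfc (0.924), Dusp6 by Arhgap29 (0.985), Sparcl1 (0.979) and Dlc1 (0.974), Spry1 by Ctsd (0.968), Orai3 (0.965) and Wnt4 (0.965), and Spry2 by C1qtnf1 (0.953), Klhl22 (0.938) and Tbc1d2b (0.926).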

How the data were processed

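Cells of 2 libraries were profiled with a 10x Genomics 3′ kit. The authors deposited unnormalized UMI counts (a matrix of genes by barcodes), made with Cell Ranger 7.0.0 on mm10, per the submitters' processing notes, and whether intronic reads were counted is not given in the sources used here. Barcodes needed 1000 detected genes and a mitochondrial share of 10% or less (3182 of 4301 passed), and Scrublet calls (14 and 15 doublets) were left out. After leaving the pathway genes out of 2000 variable genes, cells were clustered in scanpy 1.11.5 (30 components, 20 neighbours, Leiden resolution 1). A name needed 3 markers raised by a log2 ratio of 1 in at least 25% of cells. Counts were summed per class and library, and 7 classes, none under 10 cells in a library, entered 1 fit in edgeR 4.0.16 (TMM, filterByExpr, quasi-likelihood test, Benjamini-Hochberg adjustment over all genes). Phase and Neurog2 splits had fits of their own, the latter without Neurog2. Calls were made below 0.05 after adjustment. DESeq2 1.42.0, other filters, clusterings, scalings, depths and a library block were alternatives.

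Results are given for each of the 8 genes that passed the filter in a comparison, with up to 5 called genes of the pathway lists per direction, and 3 alike genes per gene. The genes, lists and tests were chosen with earlier results of these data known. The block rests on both sums of a pair coming from 1 library: differences between libraries correlated between classes at a median of 0.122 (21 pairs, -0.00955 to 0.291). Intervals and limits cover counting error only.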

Additional observations from a re-analysis of the deposited data

Results flagged for a closer look

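The genes were also counted where no comparison used them, and were found above the limit of 3 counts there. Barcodes left out by the filters (515 and 633) held 381 of Fgfr1, 1563 of Fgfr2, 178 of Fgfr3, 25 of Spry1, 47 of Spry2, 97 of Etv5 and 26 of Dusp6 UMIs, with Fgf15 at or below that limit. Clusters without a name (190 and 241 cells) held 680 of Fgfr1, 1934 of Fgfr2, 384 of Fgfr3, 7 of Fgf15, 142 of Spry1, 58 of Spry2, 116 of Etv5 and 55 of Dusp6 UMIs. Of the latter, Spry1 (18.3 and 18.4 CPM) was several-fold above its level in RGC-like cells (1.11 and 4.05), and the cluster led by Ttr, Trpm3 and Rspo3 contributed 48 of 61 and 53 of 81 of its UMIs. With 2 libraries in 1 group, single libraries were not tested for being out of range.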

How the results depend on the processing

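Of 532 fold changes of the 8 genes recomputed under alternatives, 477 kept their direction and side of the threshold, 21 lost a call, 19 gained one and 15 changed sign, none of these 15 with a call in the main analysis. Of 224 levels of the 8 genes under alternatives, 73 moved by more than the SD between libraries, and of 104 fold changes with 1 library left out, 25 moved by more than their SE. Spry1 for RGC-like minus excitatory neuron-like cells turned to 0.36 with doublets kept, 0.0248 at Leiden resolution 2 and 1.20 with classes and test on separate UMIs (adjusted p = 0.0178 by edgeR's quasi-likelihood test), and 0.12 with the latter for IPC-like minus excitatory neuron-like cells. Fgfr2 for IPC-like minus excitatory neuron-like cells turned to -0.0411 with at least 500 genes, -0.21 with doublets kept, -0.0724 at resolution 0.5 and -0.0445 with separate UMIs. Dusp6 for MGE interneuron-like minus RGC-like cells turned to -0.62 with doublets kept and -0.74 with genes scaled within libraries, and the phase difference of Fgfr1 to 0.25 after thinning. In the Neurog2 split, Fgfr3 turned to -0.12 and Spry1 to 0.12 with at least 2 Neurog2 UMIs, and Fgfr2 to 0.00574 and Fgfr3 to -0.40 with thinning before the split. With separate UMIs, Spry4 (-1.20) and Sulf1 (6.63) for RGC-like minus IPC-like cells and Sulf1 for RGC-like minus excitatory neuron-like cells (4.25) also turned, both Sulf1 values with a call. In that setting the RGC-like class held 705 cells instead of 556, and with doublets kept 774; the cause was not tested.

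The number of the 8 genes called changed by more than 1.5 times as follows: IPC-like against excitatory neuron-like cells 3 at resolution 0.5 and 3 after thinning (main 5), MGE against excitatory classes 3 with separate UMIs (main 5), MGE against RGC-like classes 2 after thinning (main 4), S-like against G2/M-like 1 with all genes of at least 1 count (main 0), and the Neurog2 split 2 with all genes, 0 with thinning before the split and 2 under a replicate block by library (main 1). The block changed no other call of the 8 genes. Over all genes, the block raised the calls in the Neurog2 split from 67 to 677 and in the phase difference from 30 to 114, and testing all genes with at least 1 count gave 917 and 551. DESeq2 gave 136 in the Neurog2 split and 146 in the phase difference, at least 2 Neurog2 UMIs gave 224, and thinning gave 52 in the phase difference. Testing all genes with at least 1 count gave 1061 calls between S-like and G2/M-like cells (main 467). Thinning gave 2976 for IPC-like against excitatory neuron-like cells (main 4465) and 4341 for MGE against RGC-like classes (main 6742), and fitting only the compared classes gave 6718 for the former. For RGC-like against IPC-like cells, all genes called ranged from 2982 to 6232 (main 4446). Fgf15, Spry1 and Dusp6 had few UMIs in most classes, and the part of depth in this was not tested. Leaving out 1 library gave values without a test, and Spry1 then ranged from -0.37 to 1.42 for RGC-like minus IPC-like cells, and Fgf15 from 1.23 to 3.79 in the Neurog2 split.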
